A study of Mus musculus with 18 samples.

Results

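The 9 genes described here serve the uptake, storage, export and sensing of iron in mouse embryonic fibroblasts (MEFs): Tfrc, Steap3, Slc11a2, Fth1, Ftl1, Ncoa4, Slc40a1, Ireb2 and Aco1. They were taken from the table of read counts by gene name, which gave 9 of the 55487 genes listed, and all 9 were among the 15381 genes with enough reads to be tested. The RNA-seq libraries came from wild type MEFs, an established line in every group, kept in a medium with a fetal bovine serum that the submitters tie to resistance to ferroptosis (Rcm) or with one tied to sensitivity (Scm). MEFs in steady culture in Scm or in Rcm made up 2 groups. MEFs moved from Rcm to Scm and collected after 12 h or 24 h were named R-Scm 12 h and R-Scm 24 h, and MEFs moved from Scm to Rcm were named S-Rcm 12 h and S-Rcm 24 h. Each of the 6 groups had 3 libraries. No group is described as given fresh medium with the same serum, so a change of serum and the change of medium itself cannot be told apart at 12 h and 24 h.

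Ferroptosis is a form of cell death that needs iron, which is why iron genes are of interest in cells that differ in their sensitivity to it. Cells take up iron bound to transferrin through the transferrin receptor, reduce it in the endosome and pass it to the cytosol. There it is used, stored in ferritin or exported by ferroportin. A pair of iron regulatory proteins bind a short hairpin, the iron-responsive element (IRE), in several of these mRNAs when iron is low. In a 3′ UTR this binding slows decay of the mRNA, as known for the transferrin receptor, whereas in a 5′ UTR it blocks translation, as known for ferritin and ferroportin. Read counts measure mRNA, so changes made by translation are outside these data, and neither iron nor protein was measured in them.

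IRE-like hairpins were searched for in the annotated UTRs of the 9 genes as a bulged C, a stem of 5 base pairs in which G-T pairs were allowed, and a loop CAGTGN. Of the 9 genes, 4 held 1 or more. They are shown because this element links these members to the iron regulatory proteins, with the bulged C and the loop in capitals. The sequences were read from the GENCODE transcripts on GRCm38. Tfrc had 4 in its 3′ UTR, at chr16:32631220-32631246, chr16:32631599-32631625, chr16:32631664-32631690 and chr16:32631711-32631737 on the plus strand. In the 5′ UTR, 1 each was found in Fth1 at chr19:9982733-9982759 on the plus strand, in Ftl1 at chr7:45459780-45459806 on the minus strand and in Slc40a1 at chr1:45925466-45925492 on the minus strand.
Tfrc hairpin 1: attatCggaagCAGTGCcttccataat
Tfrc hairpin 2: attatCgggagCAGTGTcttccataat
Tfrc hairpin 3: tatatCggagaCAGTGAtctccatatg
Tfrc hairpin 4: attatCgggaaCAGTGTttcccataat
Fth1 hairpin: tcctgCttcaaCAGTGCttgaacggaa
Ftl1 hairpin: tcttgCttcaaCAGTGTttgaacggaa
Slc40a1 hairpin: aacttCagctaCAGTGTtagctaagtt
The same letters as in Ftl1 were present in the 5′ UTR of Ftl1-ps1, a gene on chromosome 13 that resembles Ftl1. Searched on the sense strand only, the pattern occurred in the 5′ UTR of 31 of 21986 protein-coding genes (0.141%) and in the 3′ UTR of 144 (0.655%). Slc11a2, Ncoa4, Steap3, Ireb2 and Aco1 had no match to these letters in their annotated UTRs. Of these, Slc11a2 is known to have mRNA forms with an IRE in the 3′ UTR, so the absence of a match does not mean that an mRNA lacks the element.

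The 18 libraries held 14534906 to 20313715 counts each. Levels are given as CPM, the usual scaling of a gene's counts by the total of its library, here with TMM factors, with the SD over 3 libraries. Changes are given as log2 fold changes from edgeR's quasi-likelihood test with Benjamini-Hochberg adjustment over all 15381 genes. A gene counted as differentially expressed (DEG) when its log2 fold change exceeded 0.58 in either direction at an adjusted p below 0.05. The methods call the cell culture results of the study independent replicates in general, but the labels do not say whether the libraries of a group came from separate cultures, and the spread that p-values measure may then be technical. In bulk RNA, fewer cells that express a gene and less of its RNA per cell cannot be told apart. Of the fibroblast markers, 9 of 10 were tested and their summed level was 8058 to 12538 CPM. Macrophage markers summed to 10.7 to 19.8 CPM with Adgre1 at 0, and hepatocyte markers to at most 0.137 CPM. The DEGs of R-Scm 24 h against Rcm depended on single libraries: without R-Scm 24 h replicate 1 they numbered 501, in place of 58. With 1 library left out they ran from 14 to 501. In raw counts, replicate 1 differed from replicates 2 and 3 at a chi-squared per degree of freedom of 32.2 and 41.1. Between replicates 2 and 3 this was 29.7. In Rcm, replicate 3 differed from replicates 1 and 2 by 34.5 and 33.4, while replicates 1 and 2 differed from each other by 10.2. The DEGs of Rcm against Scm numbered 354, and 178 to 574 with 1 library left out. For Tfrc, Slc40a1 and Fth1, changes that involve R-Scm 24 h are given with and without its replicate 1. For most other genes such changes are given with this replicate only.

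Of the 9 genes, 2 were DEGs in any of the 5 comparisons with the steady culture from which the cells came or between both steady cultures. Tfrc was higher in R-Scm 12 h than in Rcm, and Slc40a1 was higher in S-Rcm 12 h than in Scm. In the opposite exchange the fitted change of each gene had the other sign and did not reach the DEG thresholds. At 12 h the members called were 1 of 9 in each exchange, where 2.74% of all genes tested were DEGs for R-Scm 12 h and 0.858% for S-Rcm 12 h. In the remaining comparisons edgeR and DESeq2 each called 0 of the 9, where the background of DEGs was 2.3% in Rcm against Scm, 0.377% in R-Scm 24 h against Rcm and 0.338% in S-Rcm 24 h against Scm. At an unadjusted p under 0.05 there were 2 of the 9 in Rcm against Scm, where 16.2% of all genes tested met it, 2 in R-Scm 24 h against Rcm (10.3% of all genes) and 4 in S-Rcm 24 h against Scm (8.11%). In the 12 h exchanges there were 3 in R-Scm against Rcm (17.6%) and 3 in S-Rcm against Scm (14.3%). Over the 5 comparisons, the 9 genes had a median log2 fold change of -0.11 to 0.11, and all genes tested one of -0.01 to 0.02.

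**Figure D1:**
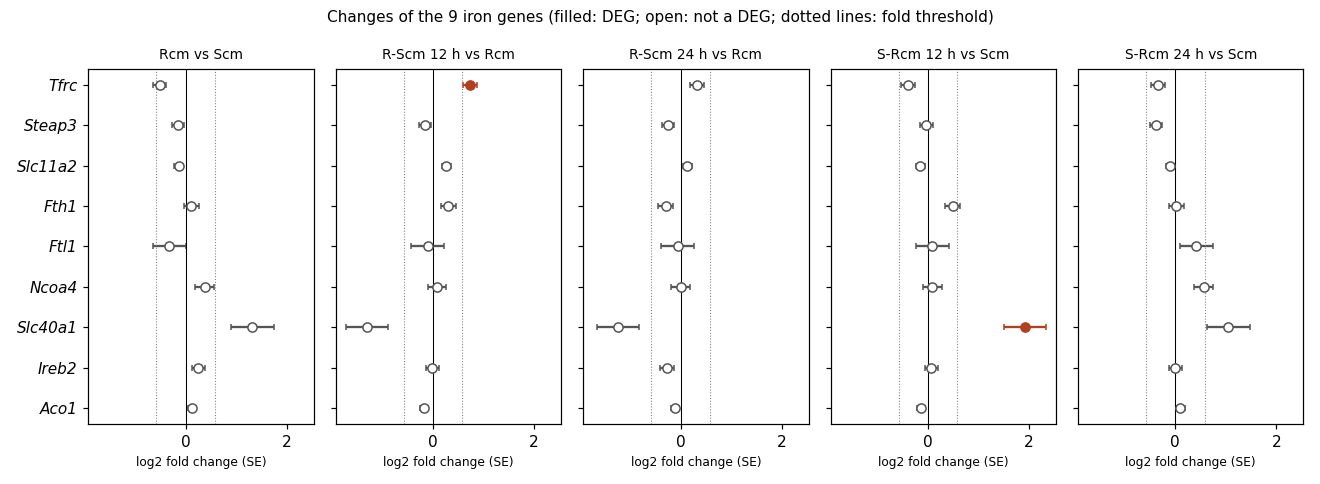
Log2 fold changes of the 9 genes (points) with their SE (bars) in the 5 comparisons, each panel with 3 libraries a group; filled points are DEGs and the dotted lines mark 0.58 in either direction. Only Tfrc at 0.73 in R-Scm 12 h and Slc40a1 at 1.92 in S-Rcm 12 h are filled, and Slc40a1 has the widest bars.

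The first of the uptake genes is Tfrc (ENSMUSG00000022797, chr16:32608920-32632794, plus strand), which encodes transferrin receptor 1, the main entry route of transferrin-bound iron. In Scm the libraries had 321, 317 and 332 CPM of Tfrc, and in Rcm 247, 228 and 202 CPM. After the move from Rcm to Scm they had 352, 347 and 428 CPM at 12 h and 211, 338 and 298 CPM at 24 h. All R-Scm 12 h libraries were above every Rcm and every Scm library, whereas R-Scm 24 h spread over the range of both steady cultures, with replicate 1 at the level of Rcm. After the move from Scm to Rcm, Tfrc stood at 241, 261 and 236 CPM at 12 h and at 249, 271 and 243 CPM at 24 h. These 6 libraries lay below all 3 Scm libraries, and both groups overlapped Rcm.

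Tfrc rose in R-Scm 12 h against Rcm from 226 ± 22.6 to 376 ± 45.5 CPM (SD, n = 3), a log2 fold change of 0.73 ± 0.13 (SE, adjusted p = 0.0044). It remained a DEG in all 16 alternatives, between 0.63 and 0.81. At 24 h the change was 0.32 ± 0.13 (adjusted p = 0.39). Leaving out R-Scm 24 h replicate 1 gave 0.49 (adjusted p = 0.014, below the fold threshold), and leaving out R-Scm 24 h replicate 2 gave 0.17 (adjusted p = 0.79). In the opposite exchange, Tfrc had log2 fold changes of -0.40 ± 0.13 at 12 h (adjusted p = 0.17) and of -0.35 ± 0.13 at 24 h (adjusted p = 0.45). Between the steady cultures, 323 ± 7.80 CPM in Scm and 226 ± 22.6 CPM in Rcm gave a log2 fold change of -0.52 ± 0.13 in Rcm. Its adjusted p of 0.048 was under 0.05, which by itself 2.87% of all genes tested met, yet the change was smaller than the DEG threshold, and the adjusted p ranged from 0.0070 to 0.15 over the alternatives. Tfrc in R-Scm 12 h was 0.22 above Scm on the log2 scale (adjusted p = 0.33), so the non-overlap with Scm did not pass the test.

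The difference between the exchanges was tested in the same fit, as the change from Rcm to R-Scm minus the change from Scm to S-Rcm. For Tfrc this difference was 1.13 ± 0.19 at 12 h (adjusted p = 0.0036) and was called in all 22 alternatives, and among all genes tested 2.03% passed the same thresholds. At 24 h it was 0.67 ± 0.19 (adjusted p = 0.10), where the background was 1.37%. Without R-Scm 24 h replicate 1 the 24 h difference was 0.84 (adjusted p = 0.0019), and DESeq2 called it at 0.69 (adjusted p = 0.022). With 1 library left out the 24 h difference ran from 0.52 to 0.84, and its adjusted p reached 0.25 over the 22 alternatives. From 12 h to 24 h in Scm, the log2 fold change of Tfrc was -0.41 ± 0.13 (adjusted p = 0.17). Without R-Scm 24 h replicate 1 it was -0.24 (adjusted p = 0.27). The removal of R-Scm 24 h replicate 2 gave -0.56 (adjusted p = 0.071).

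**Figure D2:**
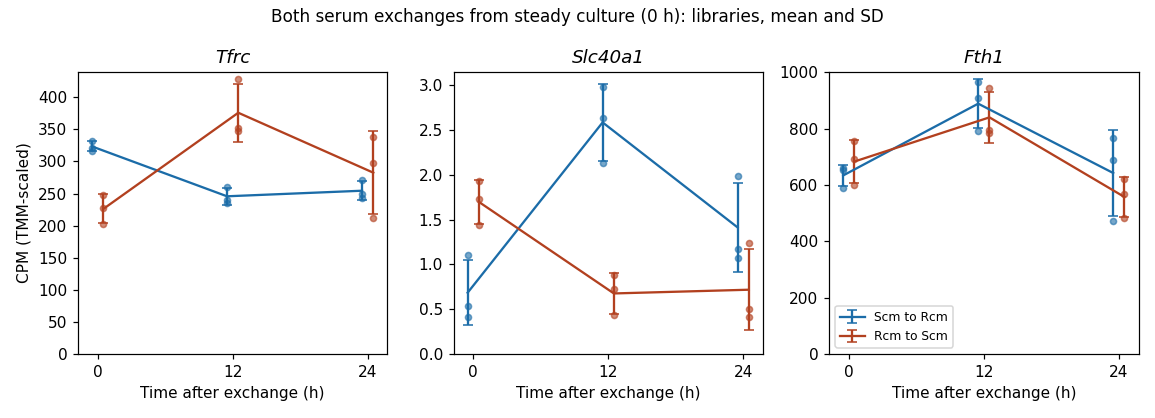
Levels of Tfrc, Slc40a1 and Fth1 in CPM against hours after the exchange, where 0 h is the steady culture of origin; points are libraries, lines join group means and bars are SD (n = 3). Tfrc and Slc40a1 run in opposite directions in the 2 exchanges at 12 h, while the mean of Fth1 is highest at 12 h in both, at 888 and 840 CPM.

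Slc11a2 (ENSMUSG00000023030, chr15:100387898-100425072, minus strand) encodes DMT1, which carries ferrous iron out of the endosome. Its levels were 58.5, 55.6 and 57.0 CPM in Scm, 51.3, 49.3 and 55.1 CPM in Rcm, and 58, 59.3 and 69.2 CPM in R-Scm 12 h. In S-Rcm 12 h they were 51.0, 50.2 and 52.4 CPM. The R-Scm 12 h libraries were all above Rcm, the S-Rcm 12 h libraries were all below Scm, and the steps were small. The log2 fold changes were 0.26 ± 0.09 for R-Scm 12 h against Rcm (adjusted p = 0.11), -0.16 ± 0.09 for S-Rcm 12 h against Scm (adjusted p = 0.45) and -0.14 ± 0.09 for Rcm against Scm (adjusted p = 0.46). The difference between the exchanges at 12 h was 0.42 ± 0.12 (adjusted p = 0.11). None of these passed the thresholds. The annotation places Gm5475 on the opposite strand over 402 exonic bases of Slc11a2, so reads of both may share a count.

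Steap3 (ENSMUSG00000026389, chr1:120190757-120272705, minus strand) encodes the endosomal reductase that turns ferric into ferrous iron. Scm had a mean level of 63.4 ± 1.37 CPM, close to the 62.1 ± 3.22 CPM of S-Rcm 12 h, and the means of the other 4 groups were 48.1 to 57.1 CPM. The libraries of S-Rcm 24 h, at 47.3, 47.7 and 51.0 CPM, all lay below those of Scm, at 61.9, 64.5 and 64.0 CPM. Set against Scm, S-Rcm 24 h had a log2 fold change of -0.38 ± 0.12 (adjusted p = 0.28), R-Scm 12 h one of -0.31 ± 0.12 (adjusted p = 0.13) and R-Scm 24 h one of -0.40 ± 0.12 (adjusted p = 0.21). The last of these ran from -0.53 to -0.31 with 1 library left out. No comparison of Steap3 passed the thresholds.

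Among the storage genes, Fth1 (ENSMUSG00000024661, chr19:9980598-9985098, plus strand) encodes the heavy chain of ferritin, which oxidizes iron for storage. It had 652, 660 and 589 CPM in Scm and 964, 908 and 792 CPM in S-Rcm 12 h. In Rcm it had 693, 754 and 601 CPM and in R-Scm 12 h 793, 783 and 943 CPM. At 24 h the levels were 765, 472 and 689 CPM in S-Rcm and 621, 569 and 481 CPM in R-Scm. Both 12 h groups lay above both steady cultures without overlap, and at 24 h the libraries of either exchange overlapped those of the culture they came from.

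The 12 h changes of Fth1 were 0.49 ± 0.15 in S-Rcm against Scm (adjusted p = 0.13) and 0.30 ± 0.15 in R-Scm against Rcm (adjusted p = 0.32), so neither was a DEG. Against the steady culture of the medium they had moved to, the 12 h groups differed by 0.41 ± 0.15 for R-Scm against Scm (adjusted p = 0.11) and by 0.38 ± 0.15 for S-Rcm against Rcm (adjusted p = 0.24). From 12 h to 24 h the log2 fold change of Fth1 was -0.59 ± 0.15 in Scm (adjusted p = 0.076), where 0.774% of all genes tested were DEGs, and -0.47 ± 0.15 in Rcm (adjusted p = 0.28). For R-Scm, DESeq2 called this change at -0.58 (adjusted p = 0.014), and edgeR called it without R-Scm 24 h replicate 1, at -0.68 (adjusted p = 0.044). With 1 library left out the change ran from -0.68 to -0.49, and its adjusted p reached 0.34 over the alternatives. Between the steady cultures the log2 fold change was 0.11 ± 0.15 (adjusted p = 0.75). Copies of Fth1 in the genome took almost no counts: at least 99.98% of the sum over Fth1 and its copies was listed under Fth1 in every library.

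Ftl1 (ENSMUSG00000050708, chr7:45457944-45459884, minus strand) encodes the ferritin light chain. Its counts cannot be read alone, since Ftl1-ps1 on chromosome 13 is 97.3% identical to it over 930 bases and held 4261 to 30676 counts a library, against 9518 to 35424 for Ftl1. Gm15590 (95.5% identical, 1703 to 4119 counts) and Ftl2-ps (95.1% identical, 123 to 394 counts) also took counts, whereas most of the other copies held few or none. How the authors' counting placed reads that match several copies is not given in the sources used here. The annotation also places Gm22133 on the same strand over 109 exonic bases of Ftl1, and Gm10252 on the opposite strand over 355.

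The division between Ftl1 and Ftl1-ps1 was not the same in all libraries. In 13 of the 18 libraries Ftl1 held 39.6% to 48.4% of the sum of both. In Rcm replicate 2 it held 66.5%, in R-Scm 12 h replicate 2 71.1%, in R-Scm 24 h replicate 1 70.3%, in R-Scm 24 h replicate 2 54.8% and in S-Rcm 24 h replicate 3 62.9%. Of these 5 libraries, 4 were of cells first kept in Rcm, with 2 in R-Scm 24 h, and 1 was of cells first kept in Scm. In S-Rcm 24 h replicate 3 the Ftl1 count was high, at 35424, and in Rcm replicate 2, R-Scm 12 h replicate 2 and R-Scm 24 h replicate 1 the Ftl1-ps1 count was low, at 5191, 5279 and 4261.

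**Figure D3:**
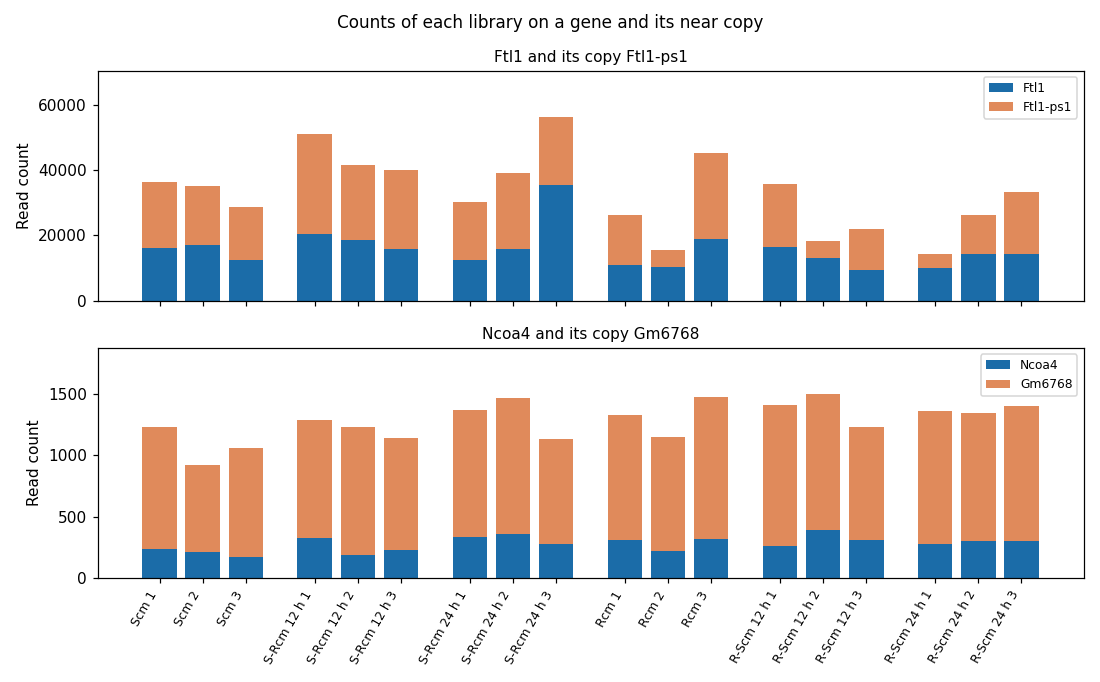
Read counts of Ftl1 with Ftl1-ps1 (upper panel) and of Ncoa4 with Gm6768 (lower panel), stacked for each of the 18 libraries, which are labelled by group and replicate number. The Ftl1-ps1 share is smallest in R-Scm 12 h replicate 2, where Ftl1 holds 71.1%, and Gm6768 holds the larger share beside Ncoa4 in all libraries.

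By its own row, Ftl1 ranged from 720 ± 168 CPM in R-Scm 12 h to 1293 ± 825 CPM in S-Rcm 24 h, and neighbours in the order of group means overlapped throughout. The log2 fold change of S-Rcm 24 h against Scm was 0.42 ± 0.33 (adjusted p = 0.85), but the S-Rcm 24 h libraries had 747, 890 and 2241 CPM. Without replicate 3, the highest of them, it was -0.24. With the near copies added to Ftl1 the change was 0.22 ± 0.32 (adjusted p = 0.95). In Rcm against Scm, the log2 fold change was -0.32 ± 0.33 for Ftl1 alone (adjusted p = 0.65) and -0.33 ± 0.32 with the copies added (adjusted p = 0.62). The sum over the copies was 2305 ± 290 CPM in Scm, with 2711 ± 294 CPM 12 h and 2691 ± 952 CPM 24 h after the move to Rcm. It was 1833 ± 659 CPM in steady Rcm, with 1548 ± 523 CPM 12 h and 1537 ± 496 CPM 24 h after the move to Scm. Neither the row nor the sum gave a DEG in any of the 13 comparisons fitted.

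Ncoa4 (ENSMUSG00000056234, chr14:32159865-32179855, plus strand) encodes the receptor that takes ferritin to autophagy so that its iron is released. Gm6768, a processed pseudogene on chromosome 12, is 99.6% identical to it over 1883 bases and held 702 to 1152 counts a library. The Ncoa4 row held 169 to 394 counts, which was 15.1% to 26.3% of the sum of both. Ncoa4 alone had 12.7, 14.8 and 11.6 CPM in Scm, 19.5, 14.9 and 16.3 CPM in Rcm and 20.1, 19.9 and 17.7 CPM in S-Rcm 24 h. The libraries of Rcm and S-Rcm 24 h were above those of Scm, narrowly so for Rcm. Rcm exceeded Scm by 0.37 ± 0.18 on the log2 scale (adjusted p = 0.33), and S-Rcm 24 h exceeded it by 0.56 ± 0.18 (adjusted p = 0.31). With Gm6768 added the differences were 0.21 ± 0.08 (adjusted p = 0.23) and 0.22 ± 0.08 (adjusted p = 0.43), both smaller than those of the Ncoa4 row.

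Slc40a1 (ENSMUSG00000025993, chr1:45908068-45926523, minus strand) encodes ferroportin, the known exporter of cellular iron. It was near the limit of detection, with 6 to 51 counts a library, and each of its values rests on these few reads. Scm libraries had 10, 6 and 16 counts and Rcm libraries 23, 29 and 34. In S-Rcm there were 39, 47 and 51 counts at 12 h and 33, 21 and 17 at 24 h. In R-Scm there were 16, 14 and 7 counts at 12 h and 21, 8 and 8 at 24 h. All S-Rcm 12 h libraries were above every library of the other groups, and Rcm did not overlap Scm or either R-Scm group, narrowly so at 24 h.

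Slc40a1 rose in S-Rcm 12 h against Scm from 0.683 ± 0.365 to 2.58 ± 0.427 CPM (SD, n = 3), a log2 fold change of 1.92 ± 0.42 (adjusted p = 0.031). DESeq2 called it as well, at 1.93 (adjusted p = 0.0027). The call rested on having all libraries: leaving out 1 library kept the direction, at 1.68 to 2.41, but it passed the thresholds only without Scm replicate 3, and without Scm replicate 1 the adjusted p was 0.16. The change at 24 h was 1.05 ± 0.43 (adjusted p = 0.49). After the move to Scm, the log2 fold changes were -1.31 ± 0.42 at 12 h (adjusted p = 0.089) and -1.24 ± 0.42 at 24 h (adjusted p = 0.25). The latter became -1.89 (adjusted p = 0.021) without R-Scm 24 h replicate 1 and -0.92 (adjusted p = 0.63) without R-Scm 24 h replicate 3. Rcm exceeded Scm by 1.31 ± 0.43 (adjusted p = 0.12), and S-Rcm 12 h exceeded Rcm by 0.60 ± 0.37 (adjusted p = 0.45).

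The difference between the exchanges for Slc40a1 was -3.23 ± 0.59 at 12 h (adjusted p = 0.0069), and it was called in all 21 alternatives that kept the gene. At 24 h it was -2.30 ± 0.60 (adjusted p = 0.072). Without R-Scm 24 h replicate 1 it was -2.94 (adjusted p = 0.0058) and without Scm replicate 3 it was -2.79 (adjusted p = 0.049). With 1 library left out the 24 h difference ran from -2.94 to -1.97, and its adjusted p reached 0.19 over the 21 alternatives. The 8 markers of red blood cells summed to 0.825 to 1.07 CPM in Scm and 1.46 to 2.95 in Rcm. In S-Rcm they summed to 1.85 to 2.68 CPM at 12 h and 1.75 to 2.29 at 24 h. In R-Scm 12 h the sum was 0.429 to 1.90 CPM, overlapping Rcm, and in R-Scm 24 h 0.707 to 1.38. Hba-a1, at 5 to 44 counts, was the 1 marker tested, and the other 7 had at most 9 counts in any library. Hba-a1 had log2 fold changes of 1.61 in S-Rcm 12 h against Scm and -0.33 in R-Scm 12 h against Rcm, the same signs as Slc40a1. It was not a DEG in any comparison. The part of these markers in the result was not tested. Macrophage markers, which include Cd68 and Cd14, overlapped between Scm (15.1 to 18.1 CPM) and S-Rcm 12 h (17.4 to 18.8 CPM). They did not overlap in the other 12 h exchange. All R-Scm 12 h sums, of up to 19.8 CPM, were above the Rcm sums of 11.6 to 15.3 CPM. Of the 2 macrophage markers tested, 1 had an unadjusted p under 0.05 in R-Scm 12 h against Rcm, and none was a DEG there.

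The iron regulatory proteins are encoded by Aco1 (IRP1, ENSMUSG00000028405, chr4:40143081-40198338, plus strand), which acts as a cytosolic aconitase when it holds an iron-sulfur cluster, and by Ireb2 (IRP2, ENSMUSG00000032293, chr9:54863789-54912530, plus strand), which is degraded when iron is high. Aco1 had 93.2 ± 1.46 CPM in Scm, 102 ± 3.93 CPM in Rcm, 90.3 ± 6.75 CPM in R-Scm 12 h and 84.9 ± 2.02 CPM in S-Rcm 12 h. The log2 fold changes were 0.13 ± 0.08 for Rcm against Scm (adjusted p = 0.46), -0.17 ± 0.08 for R-Scm 12 h against Rcm (adjusted p = 0.29) and -0.13 ± 0.08 for S-Rcm 12 h against Scm (adjusted p = 0.51). From 12 h to 24 h in Rcm the value was 0.24 ± 0.08 (adjusted p = 0.35). Ireb2 ranged from 119 ± 13.3 CPM in R-Scm 24 h to 143 ± 23.2 CPM in Rcm, and each group overlapped the next in the order of means. Its log2 fold changes were 0.25 ± 0.13 for Rcm against Scm (adjusted p = 0.36) and -0.26 ± 0.13 from R-Scm 12 h to R-Scm 24 h (adjusted p = 0.41). Neither gene passed the thresholds in any comparison, and both lay within a narrow range compared with Slc40a1.

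**Figure D4:**
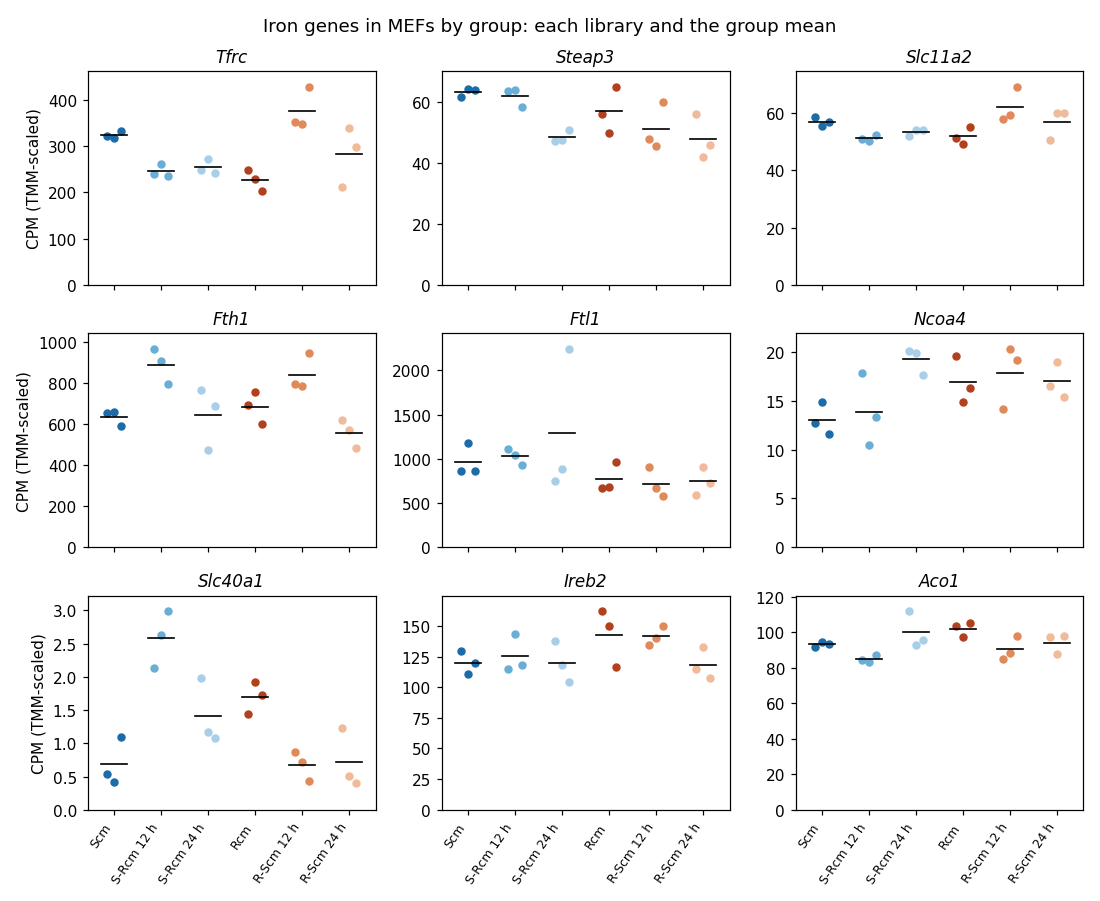
Levels of the 9 genes in CPM (TMM-scaled) in each library (points) with the group mean (line), for the 6 groups of 3 libraries; every axis starts at 0. Tfrc is highest in R-Scm 12 h at 376 CPM, Slc40a1 in S-Rcm 12 h at 2.58 CPM, and 1 library sets the high mean of Ftl1 in S-Rcm 24 h.

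In the order of group means, most neighbours overlapped. Exceptions were Scm and R-Scm 12 h for Tfrc, Rcm and S-Rcm 12 h for Slc40a1, and Rcm and R-Scm 12 h for Fth1. In the comparisons with the culture of origin, the libraries did not overlap for 4 of the 9 genes at 12 h and 1 at 24 h after the move to Scm, for 5 at 12 h and 4 at 24 h after the move to Rcm, and for 5 between Rcm and Scm. The same was true of 23.4%, 11.2%, 26.4%, 19.5% and 23.9% of all genes tested. Per kilobase of mRNA, the mean level over the 18 libraries was 952 CPM per kb for Ftl1 and 761 for Fth1, then 58.2 for Tfrc, 24.6 for Aco1, 22.2 for Ireb2, 18.8 for Steap3, 18.3 for Slc11a2 and 4.88 for Ncoa4. Slc40a1 came last at 0.384 CPM per kb. The values of Ftl1 and Ncoa4 depend on the reads placed with their copies.

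The level of Tfrc over the 18 libraries was most like that of Fst, which encodes follistatin (Pearson's r = 0.956), then of Ddx20 (r = 0.908) and Grem1 (r = 0.902). Fst also came first for Slc11a2 (r = 0.921), and Tfrc and Slc11a2 correlated with each other at r = 0.847. Slc40a1 was most like Cpt1a (r = 0.871), which encodes the enzyme that admits fatty acids to mitochondria, and ran against Slc11a2 (r = -0.801) and Tfrc (r = -0.742). Fth1 was most like Hlcs (r = 0.838), then Esd (r = 0.826) and Nqo1 (r = 0.824). The first genes for the others were Dmxl1 for Ireb2 (r = 0.966), Mroh1 for Steap3 (r = 0.935), Lrrk1 for Aco1 (r = 0.904), Aunip for Ftl1 (r = 0.846) and Cfap300 for Ncoa4 (r = 0.742). These are descriptions on a log scale over 18 libraries that fall into 6 groups and share scaling factors.

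Other genes of iron handling were counted from lists of related genes. Of 9 further uptake and reduction genes tested, 1 was a DEG in R-Scm 12 h (2.74% of all genes tested were): Steap1, of the same family as Steap3. It rose from 19.5 ± 0.945 CPM in Rcm to 32.5 ± 10.8 CPM (log2 fold change 0.73 ± 0.17, adjusted p = 0.020). Its R-Scm 12 h libraries had 25.8, 26.9 and 44.9 CPM. They were all above Rcm, with 1 library, replicate 3, well above the other two. Steap1 kept its call in 3 of 6 fits with a single library of either group removed. Without R-Scm 12 h replicate 3, Rcm replicate 1 or Rcm replicate 2 it was not a DEG, and over the 6 fits the log2 fold change ran from 0.43 to 0.88 (adjusted p from 0.0094 to 0.085). Slc39a14, a transporter of iron not bound to transferrin, had group means of 55.6 to 62.4 CPM, and its 5 log2 fold changes lay between -0.06 and 0.08 (adjusted p from 0.838 to 0.992).

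For export, 1 of 5 listed genes was tested. Cp, the ceruloplasmin gene, whose product oxidizes exported iron, was higher in Rcm (34.6 ± 8.15 CPM) than in Scm (13.7 ± 1.39 CPM), by 1.34 ± 0.20 on the log2 scale (adjusted p = 0.0013). Its libraries were at 35.9, 42.1 and 25.9 CPM in Rcm and at 13.6, 12.3 and 15.1 CPM in Scm, with no overlap. After the move to Rcm the changes were 0.67 ± 0.20 at 12 h (adjusted p = 0.12) and 0.73 ± 0.20 at 24 h (adjusted p = 0.18), and after the move to Scm they were -0.11 ± 0.20 at 12 h (adjusted p = 0.83), with 32.0 ± 4.28 CPM in R-Scm 12 h, and -0.72 ± 0.20 at 24 h (adjusted p = 0.13). DESeq2 called the change at 12 h and 24 h in Rcm and that at 24 h in Scm, with adjusted p of 0.045, 0.043 and 0.040. Heph and the hepcidin genes Hamp and Hamp2 had at most 1 count in any library.

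Haem synthesis and breakdown gave 1 DEG of 19 genes tested in the 5 comparisons: Alas1, the rate-limiting enzyme of haem synthesis in cells other than red cell precursors. S-Rcm 12 h had 50.5 ± 1.61 CPM of it and Scm 30.5 ± 0.0519 CPM (log2 fold change 0.73 ± 0.11, adjusted p = 0.0037). In that comparison 0.858% of all genes tested were DEGs. Hmox1, which breaks down haem and frees its iron, had group means of 67.1 to 106 CPM, and its change in R-Scm 24 h was -0.67 ± 0.20 (adjusted p = 0.17). In the list of autophagy genes 1 of 14 was a DEG, Sqstm1, which encodes the autophagy receptor p62. It was lower in Rcm (287 ± 39.0 CPM) than in Scm (431 ± 21.9 CPM), at -0.59 ± 0.12 (adjusted p = 0.0091). Of all genes tested, 2.3% were DEGs between Rcm and Scm. Leaving out Scm replicate 1, Scm replicate 2 or Rcm replicate 3 ended the call of Sqstm1 as a DEG, because the change fell below the fold threshold. Over the 6 fits the log2 fold change ran from -0.66 to -0.49 and the adjusted p from 0.017 to 0.0496.

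In 3 lists no gene was a DEG by edgeR or DESeq2 in the 5 comparisons. They held 21 genes of mitochondrial iron and iron-sulfur clusters, with 1 to 6 at an unadjusted p under 0.05 in each comparison, 8 genes of iron sensing and hepcidin control, with 0 to 4, and 4 of storage and iron chaperones, with 0 to 1. Of all genes tested, 8.11% to 17.6% met this p in the same comparisons. The sensing list had 4 of 8 in S-Rcm 24 h against Scm (8.11% of all genes). It had 3 each in Rcm against Scm (16.2%) and S-Rcm 12 h against Scm (14.3%). R-Scm 24 h against Rcm had 1 (10.3%) and R-Scm 12 h against Rcm 0 (17.6%). In S-Rcm 12 h against Scm, 1 of the 8 also passed by adjusted p alone, below the fold threshold. Fbxl5, the adaptor that marks IRP2 for degradation, had group means of 42.5 to 51.8 CPM and differed between Rcm and Scm by 0.28 ± 0.10 on the log2 scale (adjusted p = 0.14). The iron chaperones Pcbp1 and Pcbp2 had log2 fold changes of -0.32 ± 0.13 (adjusted p = 0.23) and 0.06 ± 0.08 (adjusted p = 0.71) in the same comparison. Of 9 tested mRNAs with a known IRE, a list that includes Tfrc, Slc11a2, Fth1, Ftl1 and Slc40a1, 1 was a DEG in each 12 h exchange, and these were the members already described.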

How the data were processed

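RNA of 18 libraries of MEFs was sequenced as read pairs and, per the paper's methods and the labels, aligned to GRCm38 with a spliced aligner. The authors deposited raw counts per gene, whole numbers for 55487 genes. The counting tool, its use of strand and its treatment of reads with several alignments are not given in the sources used here. The library kit named in the labels is not stated to keep strand, so reads of overlapping genes on opposite strands may share a count. Alignment and counting were not repeated.

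Counts were filtered with filterByExpr, which left 15381 genes and removed 40106, scaled with TMM and fitted over all 18 libraries with a mean for each of the 6 groups in edgeR 4.0.16 (R 4.3.3; glmQLFit, robust, and glmQLFTest, 12 residual degrees of freedom). In all, 13 contrasts were tested, 2 of which compare both exchanges. The SE of a log2 fold change was its size divided by the square root of F. DESeq2 1.42.0 was an alternative. The fit was tested on simulated counts. The library totals of 14534906 to 20313715 counts set the precision, and the common dispersion was 0.0298. Intervals from counting alone are not given for the levels, and no library was left out of the fit. Columns were matched to libraries by name, with 0 columns left out. Column names and sample titles number the replicates differently in some groups, and the numbers of the titles are used here.

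Replicates of a group all differed by more than sampling noise. The replicate numbers of the titles were not taken as pairs, because only 11 of 45 same-numbered pairs of libraries deviated together at a correlation above 0.1. The numbers of the column names were not checked in this way, so pairing by those numbers remains untested.

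Near copies of the 9 genes were found with blastn 2.17.0+ among GENCODE M21 transcripts on GRCm38, with at least 300 aligned bases and 85% identity. IRE-like hairpins were searched for in the same transcripts, and the length of the first listed transcript gave levels per kilobase. Genes named were the 9, the DEGs of the iron lists in the 5 comparisons, and Hmox1, Fbxl5, Pcbp1, Pcbp2 and Slc39a14. For each of the 9, the genes with the highest Pearson's r of log2 CPM were named. The 9 genes and the lists were chosen with earlier results of these data known. Alternatives were another scaling, other filters on low counts, DESeq2, fits of the compared groups alone, a replicate block, other thresholds, pseudogenes summed and each library left out. Summing all near copies, leaving out the 4 libraries with the highest Ftl1 share of the Ftl1 and Ftl1-ps1 counts (62.9% to 71.1%) and leaving out these with R-Scm 24 h replicate 2 (54.8%) were added after seeing the data.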

Additional observations from a re-analysis of the deposited data

Results flagged for a closer look

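Tfrc and Slc40a1 responded differently to the 2 exchanges at 12 h by the test of the difference itself. For Tfrc the difference between the log2 fold changes of R-Scm 12 h and S-Rcm 12 h, each against its culture of origin, was 1.13 ± 0.19 (SE, adjusted p = 0.0036 by edgeR's quasi-likelihood test). All 3 R-Scm 12 h libraries were above Rcm and all 3 S-Rcm 12 h libraries were below Scm. For Slc40a1 the difference was -3.23 ± 0.59 (adjusted p = 0.0069), with all 3 R-Scm 12 h libraries below Rcm and all 3 S-Rcm 12 h libraries above Scm. Both differences are measured from the steady cultures, which stood apart themselves. In Rcm against Scm the log2 fold change was -0.52 for Tfrc and 1.31 for Slc40a1, and neither was a DEG there. Slc40a1 rested on 6 to 51 counts a library. Hba-a1, a red blood cell marker with few counts, changed with the same signs at 12 h without being a DEG, as given above.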

How the results depend on the processing

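Of 709 values of 43 named results under the alternatives, 691 kept direction and side of the thresholds, 5 were no longer called, 10 became called and 3 changed sign, none of the latter called. In Rcm against Scm, 1 of the 9 genes passed by adjusted p alone and 0 with the fold threshold. S-Rcm 12 h against Scm had 0 at an adjusted p under 0.01 and 0 with at least 10 counts in every library, a filter that removed Slc40a1, and 0 to 1 with a library left out. R-Scm 24 h against Rcm had 0 to 1 with a library left out, R-Scm 24 h against R-Scm 12 h 0 to 1 and 1 by DESeq2. The difference of the exchanges at 12 h had 1 where Slc40a1 was filtered out. At 24 h it had 0 to 2 with a library left out, 2 by DESeq2 and 2 without the 4 libraries with the highest Ftl1 share, but 0 without all 5 with another Ftl1 division, which leaves 1 R-Scm 24 h library, assumed to vary like the rest. Leaving out those 4 or all 5 turned Ftl1 in S-Rcm 24 h against Scm to -0.24, and leaving out 1 library gave -0.24 to 0.69.

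A replicate block by the numbers of the titles changed the count of called members in none of the 13 comparisons (0 in Rcm against Scm, 1 in each 12 h exchange and 2 in their difference). By the same numbers, 7 of 18 libraries correlated best with their own number. With the block, DEGs of R-Scm 24 h against Scm numbered 59 in place of 91. DESeq2 called more DEGs over all genes in each of the 13 comparisons, such as 163 against 58 in R-Scm 24 h against Rcm, 254 against 132 in S-Rcm 12 h against Scm and 136 against 52 in S-Rcm 24 h against Scm. With a library left out these numbered 14 to 501, 36 to 76 and 6 to 28. Without the 4 or the 5 libraries, R-Scm 24 h against Rcm had 248 or 73 DEGs and R-Scm 24 h against R-Scm 12 h 180 or 44, in place of 58 and 119. With 6 to 51 counts, Slc40a1 is limited by depth. The cause of these changes was not tested, apart from the filter.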

Other observations

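The 10 genes listed as targets of NRF2, the factor that answers oxidative stress and also acts on ferritin and haem oxygenase, were all tested. Nqo1, a quinone reductase, was the 1 DEG among them in the 5 comparisons, in S-Rcm 12 h against Scm, where 0.858% of all genes tested were DEGs. At an unadjusted p under 0.05 there were 6 of the 10 in R-Scm 24 h against Rcm (10.3% of all genes). There 8 changes were negative and 2 positive, with a median of -0.24. R-Scm 12 h against Rcm had 6 (17.6%), S-Rcm 12 h against Scm 4 (14.3%), S-Rcm 24 h against Scm 1 (8.11%) and Rcm against Scm 0 (16.2%). Nqo1 was higher in S-Rcm 12 h (337 ± 6.99 CPM) than in Scm (141 ± 7.85 CPM), by 1.25 ± 0.11 on the log2 scale (SE, adjusted p = 1.9e-05 by edgeR's quasi-likelihood test). Its libraries were at 134, 150 and 141 CPM in Scm and at 344, 330 and 337 CPM in S-Rcm 12 h, far apart. In R-Scm 12 h it exceeded Rcm by 0.49 ± 0.11 (adjusted p = 0.016), under the fold threshold. Pgd and Srxn1 had 0.48 and 0.45 in S-Rcm 12 h (adjusted p = 0.019 and 0.041), also under it. At 24 h Nqo1 was back at 163 ± 12.8 CPM, 0.21 ± 0.11 above Scm on the log2 scale (adjusted p = 0.69).

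Fibroblast markers were not constant between the groups: of 9 tested, Col3a1 was a DEG in Rcm against Scm (1.5, adjusted p = 0.027), Pdgfrb in R-Scm 12 h against Rcm (-0.72, adjusted p = 0.039) and Thy1 in S-Rcm 12 h against Scm (0.71, adjusted p = 0.0066). With each of the 6 libraries of a comparison left out in turn, Thy1 kept its call in 6 fits, Col3a1 in 1 (adjusted p from 0.046 to 0.11), the fit without Rcm replicate 3, and Pdgfrb in 0 (adjusted p from 0.084 to 0.12). Hba-a1, the red blood cell marker that was tested, had 1.61 in S-Rcm 12 h against Scm (adjusted p = 0.10).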
